A study of Mus musculus with 7 samples.

Results

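Horizontal basal cells are the reserve stem cells of the olfactory epithelium, the tissue of the nose that senses odours, and 8 genes by which these cells are recognised were followed across 7 mouse libraries: Trp63, Krt5, Krt14, Krt15, Itga6, Icam1, Cav1 and Egfr. The members were taken by gene symbol, and each of the 8 was found once among the 50600 genes of the count table. Their 38 annotated transcripts were found in the transcript table. All libraries came from whole olfactory epithelium at postnatal day 7. The wild type (Amigo1+/+, WT) gave 1 library, the Amigo1-/- genotype (KO) gave 3, and the Amigo1neo/neo genotype (neo) gave 3. In neo mice a neomycin resistance cassette stands where the coding sequence of Amigo1, a cell adhesion protein gene, used to be, so KO and neo both lack Amigo1 and differ in the cassette. Within the names of the samples, WT and KO share a date-like number that is another in neo, so what it marks and the cassette allele cannot be told apart. WT had no replicate, and the labels do not tie each library to a separate animal. The p-values therefore measure variation among these libraries, some of which may be technical.

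Horizontal basal cells lie flat on the basement membrane and rarely divide while the epithelium is intact. After severe injury they become active and rebuild neurons and supporting cells. The transcription factor p63, encoded by Trp63, holds them in the resting state, and its loss accompanies activation. The keratins 5, 14 and 15 form their intermediate filaments, integrin alpha 6 anchors them to laminin, ICAM1 and caveolin 1 sit in their membrane, and the EGF receptor carries growth signals. None of these genes is private to the cell type: the respiratory lining of the nose has its own basal cells with p63 and the same keratins, and integrin alpha 6, caveolin 1 and ICAM1 are also made by endothelium and other cells. In RNA from whole tissue, fewer cells of a type and less RNA per cell cannot be told apart.

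Gene counts summed to between 14879415 and 21343058 per library, and each member had between 140 and 2481 counts in every library. Amigo1 had 744 counts in WT and at most 16 in any KO or neo library, as the labels require. Neo replicate 1 stood apart from the other 6 libraries. Its summed level of 6 skeletal muscle markers was 1062 CPM (gene counts relative to library size, scaled with TMM factors over the 7 libraries), against 4.12 to 19.6 elsewhere. Its summed level of 6 Bowman gland markers was 787 CPM, against 21454 to 51601 elsewhere. That drop was not shared by all 6 markers. In neo replicate 1 Sox9 was at 34.0 CPM, against 33.4 CPM in KO replicate 3. Muc5b was at 95.6 CPM there, within its range in the other libraries (57.3 to 155 CPM). Obp2a was lowest in neo replicate 1, at 461 CPM against 555 CPM in KO replicate 3. Xist, which is made from the inactive X chromosome, reached 644 CPM in WT and 1145 CPM in neo replicate 1, against at most 4.18 CPM in the other 5 libraries. All 6 bone-forming cell markers were detected, with a lower sum in neo (221 to 710 CPM) than in KO (936 to 1340 CPM). The part of tissue makeup and sex in the levels of the 8 genes was not tested.

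Trp63 (ENSMUSG00000022510.14, GRCm38 chr16:25683763-25892102, plus strand) is the master regulator among the 8 genes, and its transcripts begin at either of 2 promoters. The upstream promoter gives TA transcripts with a full transactivation domain, and the internal promoter gives deltaN transcripts, which lack it and are the form known from basal cells. The first coding exons are shown because reads over them tell the promoters apart, with the start codon in capitals (chr16:25802060-25802101 for deltaN and chr16:25684290-25684351 for TA, plus strand, read from the GENCODE vM21 transcripts).
deltaN first coding exon: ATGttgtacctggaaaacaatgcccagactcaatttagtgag
TA first coding exon: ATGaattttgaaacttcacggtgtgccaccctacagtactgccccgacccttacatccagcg
A second choice lies at the end of an exon downstream, where 12 bases, in capitals, are kept or skipped (chr16:25866164-25866211 and chr16:25866164-25866199).
Exon end in Trp63-201: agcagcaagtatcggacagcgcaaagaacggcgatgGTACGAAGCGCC
Exon end in Trp63-205: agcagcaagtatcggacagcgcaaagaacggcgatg
A further choice sets the tail of the protein, and the first 60 bases of the last coding exon are shown for the long alpha form (chr16:25889008-25889067) and the short gamma form (chr16:25876627-25876686).
Alpha, Trp63-201: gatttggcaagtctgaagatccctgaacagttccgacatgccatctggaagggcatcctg
Gamma, Trp63-204: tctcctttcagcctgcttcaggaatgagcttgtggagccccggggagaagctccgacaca

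Trp63 was at 31.1 CPM in WT, at 40.7, 29.3 and 30.8 CPM in KO, and at 41.4, 49.5 and 47.6 CPM in neo. All 3 neo libraries lay above all 3 KO libraries, but the highest KO library and the lowest neo library were close. The means were 33.6 ± 6.20 CPM (SD, n = 3) in KO and 46.2 ± 4.24 CPM (SD, n = 3) in neo. The edgeR estimate was 0.46 higher in neo on the log2 scale (SE 0.14, unadjusted p = 0.0106, adjusted p = 0.471), so Trp63 did not pass the threshold of 0.05 on the adjusted p. In the authors' deposited table, which gives KO over neo, the log2 fold change of Trp63 was -0.46 with an adjusted p of 0.311. Over 14 alternative settings the edgeR, DESeq2 or limma estimate ranged from 0.38 to 0.62, and the lowest adjusted p was 0.197, without neo replicate 1. WT lay between the KO libraries.

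Across the 8 members, 0 passed in neo against KO, where edgeR called 3 of 17638 genes (0.017%). By limma on TPM, RSEM's length-scaled transcript abundance, and by DESeq2 no member passed either, although DESeq2 called 101 genes. At an unadjusted p under 0.05, 1 member of 8 was higher in neo and 0 were lower, against 9.32% of all genes in either direction, 4.59% higher and 4.72% lower. Groups that did not overlap were found for 1 member of 8, Trp63, against 15.6% of all genes, and 7.59% of all genes had every neo library above every KO library. The median difference of the 8 members was 0.06 on the log2 scale, against 0.00 for all genes tested. Without neo replicate 1 the members' median was 0.22 with 7 of 8 above 0, against 0.01 for all genes, and again none passed.

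**Figure D1:**
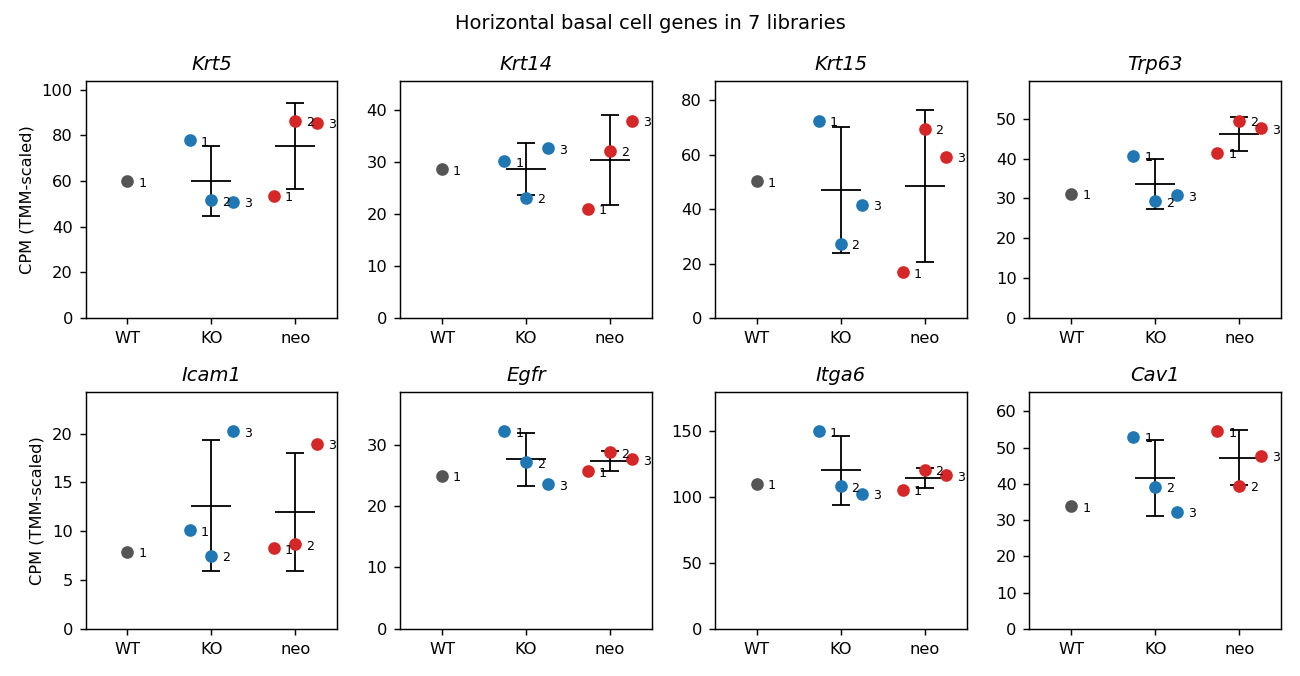
Normalised level (CPM with TMM factors, linear axis from 0) of each gene in the 7 libraries, with the replicate number beside each point and the mean ± 1 SD of KO and neo as bars (n = 3 each). Trp63 alone has every neo point above every KO point, from 41.4 to 49.5 against 29.3 to 40.7 CPM.

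By transcript, Trp63 was almost wholly of the deltaN kind. DeltaN transcripts held 100% of the Trp63 TPM in WT, 98.7, 100 and 98.1% in KO, and 97.8, 98.9 and 100% in neo, as RSEM assigned the reads. TA transcripts summed to between 0 and 0.34 TPM in any library, and a value of 0 here is an estimate with no error given. The deltaN share differed by -0.045 percentage points between neo (98.9 ± 1.097%, SD, n = 3) and KO (98.9 ± 0.98%, SD, n = 3), with an exact permutation p = 1 (two-sided), where 3 libraries against 3 can give no p below 0.1. The 4 TA transcripts were each at 0 in at least 5 libraries.

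Summed deltaN TPM followed the gene level, with 10.3 in WT, 11.7, 9.0 and 9.21 in KO, and 15.2, 14.0 and 16.4 in neo. The KO and neo values did not overlap, and the exact permutation p was 0.1, the smallest possible (two-sided, n = 3 against 3). DeltaN forms held nearly all Trp63 TPM, so this repeats the gene level. The TPM were not corrected for a shift over all transcripts. By transcript, the groups separated for some forms and not for others. Trp63-205, the deltaN alpha form without the 12 bases (582 codons), was at 3.49 TPM in WT, 4.91, 4.33 and 6.30 TPM in KO, and 7.60, 9.13 and 9.56 TPM in neo. Again no neo value fell into the KO range. By gene CPM, 15.6% of all genes had no overlap, and the share over all transcripts was not counted. The limma difference on log2(TPM + 0.1) was 0.76 (SE 0.22, unadjusted p = 0.0125, adjusted p = 0.865), against a median of 0.13 over all transcripts tested.

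Trp63-201, the deltaN alpha form with the 12 bases (586 codons), was at 6.06 TPM in WT, 6.37, 4.40 and 2.19 TPM in KO, and 6.93, 3.74 and 5.08 TPM in neo, and the groups overlapped (0.36 on the log2 scale, SE 0.44, adjusted p = 0.908 by limma). Trp63-204, the deltaN gamma form (393 codons), was at 0.72 TPM in WT, 0.22, 0.27 and 0.56 TPM in KO, and 0.59, 1.16 and 1.77 TPM in neo (1.46, SE 0.69, unadjusted p = 0.0733, adjusted p = 0.865 by limma). Neo replicate 1 sat just above the KO range and the other 2 neo libraries well above it, at levels not far from the filter of 0.5 TPM. Within deltaN alpha, the form without the 12 bases made up 36.5% in WT, 55.8 ± 16.2% (SD, n = 3) in KO and 62.8 ± 9.56% (SD, n = 3) in neo, and the exact permutation p was 0.7 (two-sided). So the difference in that share was smaller than the spread between libraries, since KO alone ran from 43.5 to 74.2%.

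**Figure D2:**
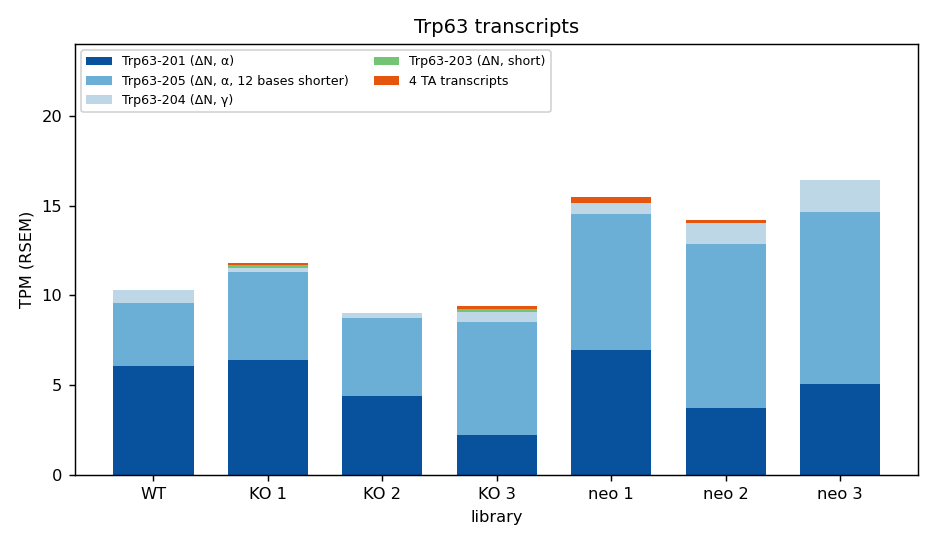
RSEM estimates (TPM) of the Trp63 transcripts stacked per library, with 3 deltaN transcripts in blue, a short deltaN transcript in green and the sum of 4 TA transcripts in orange. The deltaN total is 14.0 to 16.4 TPM in neo and 9.0 to 11.7 TPM in KO, and TA transcripts reach at most 0.34 TPM.

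Of the 38 transcripts of the 8 genes, 21 had a mean of at least 0.5 TPM over KO and neo and were tested, and 0 passed. Over all 44981 transcripts tested by limma, 0 passed (0.0%), and 5.19% had an unadjusted p under 0.05. Among the 21, Trp63-205 was the only transcript with an unadjusted p under 0.05.

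The keratins form pairs of a basic and an acidic chain, and Krt5 (basic; ENSMUSG00000061527.6, chr15:101707070-101712891, minus strand) pairs with Krt14 (acidic; ENSMUSG00000045545.8, chr11:100203162-100207548, minus strand) in basal cells. Krt5 was at 59.9 CPM in WT, at 77.8, 51.5 and 51.0 CPM in KO, and at 53.7, 86.5 and 85.6 CPM in neo. KO replicate 1 and neo replicates 2 and 3 were high and the other 4 libraries low, so KO and neo overlapped. The edgeR difference between neo and KO was 0.32 on the log2 scale (SE 0.23, adjusted p = 0.714). It was 0.52 without neo replicate 1 and 0.55 without KO replicate 1, and did not pass either way (adjusted p = 0.311 and 0.597).

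Krt14 was at 28.6 CPM in WT, at 30.1, 23.1 and 32.6 CPM in KO, and at 21.0 to 37.9 CPM in neo, where replicate 1 was the lowest of all libraries and replicate 3 the highest. The groups overlapped fully, with a difference of 0.08 (SE 0.22, adjusted p = 0.938, edgeR). Reads of Krt14 can be shared with its close relatives Krt16 and Krt17, so its level is uncertain to that extent. A second Krt14 transcript with another first exon and no coding sequence, Krt14-202, took 35.5% of the Krt14 TPM on average, from 17.3% in KO replicate 1 to 51.4% in neo replicate 2.

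Krt15 (ENSMUSG00000054146.8, chr11:100131758-100135928, minus strand), an acidic keratin of resting basal cells, had the widest range of the 8 genes from lowest to highest library, while its coefficient of variation over the 7 libraries (43.5%) was below that of Icam1 (47.1%). It was at 50.3 CPM in WT, at 72.6, 27.3 and 41.6 CPM in KO, and at 16.8, 69.6 and 59.3 CPM in neo, so its highest library exceeded its lowest 4.31-fold. The extremes were KO replicate 1 and neo replicate 1, and the difference between genotypes was 0.04 with an SE of 0.65 (adjusted p = 0.990, edgeR). Without KO replicate 1 it was 0.49 and without neo replicate 2 it was -0.31, so its direction rested on which library was kept. A transcript of Krt15 that keeps an intron, Krt15-202, took 1.67% of the Krt15 TPM in WT and 10.8 to 28.4% in the other 6 libraries.

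Itga6 (ENSMUSG00000027111.15, chr2:71745616-71858416, plus strand) encodes the laminin-binding integrin alpha 6. It had the highest mean gene TPM of the 8 genes, with its noncoding transcripts counted. It was at 110.0 CPM in WT, at 149.9, 108 and 102 CPM in KO, and at 106, 121 and 117 CPM in neo. KO replicate 1 was the highest, and the other 6 libraries lay within 102 to 121 CPM. The difference between neo and KO was -0.07 (SE 0.14, adjusted p = 0.919, edgeR).

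The protein has an A or a B form that differ in the tail inside the cell, and the last coding exons of both are shown because RSEM's split between them varied widely (chr2:71853534-71853638 for A and chr2:71855854-71856012 for B, plus strand, GRCm38).
A form, Itga6-201: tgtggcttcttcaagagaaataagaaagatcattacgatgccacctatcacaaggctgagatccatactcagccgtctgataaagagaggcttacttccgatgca
B form, Itga6-202: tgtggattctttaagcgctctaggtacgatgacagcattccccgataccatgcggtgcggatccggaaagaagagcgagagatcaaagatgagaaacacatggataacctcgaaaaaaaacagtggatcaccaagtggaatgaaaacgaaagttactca
Of the TPM of those 2 transcripts, the A form took 94.1% in WT, 84.0, 83.2 and 57.7% in KO, and 97.8, 72.5 and 74.04% in neo. It was the larger part in every library. The A share averaged 75.0 ± 14.9% over KO and 81.4 ± 14.2% over neo libraries (SD, n = 3 each), with an exact permutation p of 0.6 (two-sided). A noncoding transcript over the 3′ end of the gene, Itga6-203, was given 53.9% of the Itga6 TPM on average and 51.1 to 55.8% in any library, so TPM of coding Itga6 transcripts is lower than the gene total.

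Egfr (ENSMUSG00000020122.16, chr11:16752203-16918158, plus strand), the EGF receptor, was the steadiest of the 8, with a highest library 1.37-fold above the lowest. It was at 24.9 CPM in WT, at 32.2, 27.1 and 23.5 CPM in KO, and at 25.6, 28.8 and 27.6 CPM in neo. The neo libraries lay inside the KO range, and the difference was -0.01 (SE 0.13, adjusted p = 0.985, edgeR). Egfr-202, which ends early and codes for 655 residues against 1210 in Egfr-201, took 24.3 to 34.8% of the Egfr TPM.

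Cav1 (ENSMUSG00000007655.16, chr6:17306335-17341452, plus strand) encodes caveolin 1, the coat protein of membrane pits called caveolae. It was at 33.8 CPM in WT, at 52.9, 39.3 and 32.3 CPM in KO, and at 54.5, 39.5 and 47.7 CPM in neo. Replicate 1 was the highest of both genotypes and the groups overlapped (0.19, SE 0.19, adjusted p = 0.807, edgeR). Without KO replicate 1 the estimate was 0.40 and without KO replicate 3 it was 0.04, and it did not pass in either fit (adjusted p = 0.609 and 0.966).

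Icam1 (ENSMUSG00000037405.8, chr9:21015985-21028817, plus strand) encodes an adhesion molecule that binds leukocyte integrins and is induced by inflammatory signals through NF-kB. Its promoter is shown because several NF-kB target genes were high in the same libraries as Icam1 (RefSeq, GRCm38.p6, chr9:21015690-21015989, plus strand). The first block of capitals is the NF-kB type motif GGAAATTCC, 153 bases before the RefSeq start, and the second is TATAAA, 13 bases after it.
Icam1 promoter: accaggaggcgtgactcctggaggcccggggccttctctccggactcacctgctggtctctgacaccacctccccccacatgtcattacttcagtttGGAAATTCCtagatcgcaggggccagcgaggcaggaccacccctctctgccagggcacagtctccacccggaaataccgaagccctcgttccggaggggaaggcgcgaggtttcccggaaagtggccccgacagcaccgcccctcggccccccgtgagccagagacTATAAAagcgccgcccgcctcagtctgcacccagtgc
The 9 letters of the first motif, searched on both strands, are present in 104 of 32851 promoter windows of this length (0.317%), and TATAAA in 13.6%. The windows of Krt5, Krt14, Egfr and Cav1 do not hold GGAAATTCC, which says only that these letters are not there. A second NF-kB type motif, which is not a palindrome, is in 0.411% of all windows. It was found once in the Krt14 window, 107 bases before the start, and not in those of Icam1 and the other 3 members. The Krt14 window (chr11:100205981-100206280) lies around the start of the noncoding Krt14-202 (chr11:100206030). The coding Krt14-201 starts at chr11:100207548, outside that window, and its promoter was not searched. A paired p63 type motif (0.712% of all windows) is in none of the 5 members' windows. Promoter windows were found for 5 of the 8 members, without Trp63, Krt15 and Itga6. A match is a string of letters and not a measured binding site.

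Icam1 was at 7.91 CPM in WT, at 10.1, 7.51 and 20.2 CPM in KO, and at 8.26, 8.67 and 19.0 CPM in neo. KO replicate 3 and neo replicate 3 were high, the other 5 libraries were at 10.1 CPM or below, and the high libraries belong to different genotypes. The difference between neo and KO was therefore small against its error (-0.08, SE 0.48, adjusted p = 0.974, edgeR). It turned to 0.44 without KO replicate 3 and to -0.57 without neo replicate 3.

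The same 2 libraries were high for several NF-kB targets. Nfkbia, the inhibitor that NF-kB induces as feedback, was at 87.4 CPM in KO replicate 3 and 68.2 CPM in neo replicate 3, against 34.0 to 38.4 CPM in the other 5. Tnfaip3, another feedback inhibitor, was at 38.5 and 26.7 CPM against 6.80 to 10.3 CPM. Nfkb2, a subunit of NF-kB itself, was at 13.5 and 12.3 CPM against 7.40 to 9.13 CPM. Relb and Birc3 had the same 2 libraries on top. The list of ICAM1 partners and NF-kB targets held 8 genes with at least 5 CPM on average. Of these, 6 had a Pearson r with Icam1 above 0.8 over the 7 libraries, against 2.25% of 12827 genes. Vcam1 (r -0.007) and Itgal (r 0.59) did not. Vcam1 was lowest of all libraries in KO replicate 3 (7.57 CPM) and highest in neo replicate 3 (10.6 CPM). The r values describe libraries that share normalisation and depth, and most rest on KO replicate 3 and neo replicate 3. Without these 2 libraries r was 0.91 for Nfkb2 but 0.13 for Nfkbia and -0.70 for Tnfaip3. The summed level of 7 macrophage markers was 134 CPM in KO replicate 3 and 153 CPM in neo replicate 3, against 104 to 128 CPM elsewhere, and that of 6 pericyte and smooth muscle markers was 2703 and 2955 CPM against 1705 to 2289 CPM. All 13 of these markers were detected, but single markers differed from the sums. Adgre1 (4.92 CPM) and Acta2 (220 CPM) were lowest of the 7 libraries in KO replicate 3. Of markers with at least 5 CPM on average, 1 of 6 macrophage genes had an r above 0.8 with Icam1 (median 0.35). The same held for 1 of 6 pericyte and smooth muscle genes (median 0.11). The part of these cell types in the Icam1 level was not tested.

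**Figure D3:**
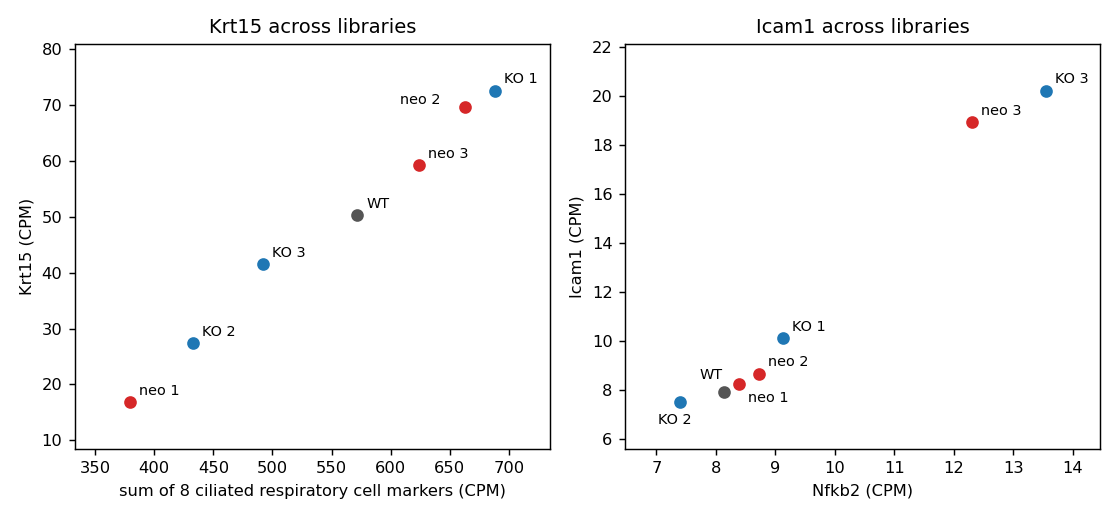
Left, Krt15 against the summed level of 8 ciliated respiratory cell markers, and right, Icam1 against Nfkb2, all in CPM on linear axes that do not start at 0, with 1 point per library. Krt15 runs in the same order as the ciliated sum from neo replicate 1 to KO replicate 1, and 2 libraries of different genotypes are high for Icam1 and Nfkb2.

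Against the WT library, 0 of 8 members passed in KO (edgeR called 1 of 19123 genes, 0.00523%) and 0 of 8 in neo (2 genes, 0.0105%). For KO, 0 members had an unadjusted p under 0.05, against 0.727% of all genes. For neo, 1 member did, Trp63, against 2.97% of all genes. DESeq2 called 0 members in both. The estimates assume that WT varies like the other groups, and both comparisons share the WT library. Xist was at 644 CPM in WT and at most 4.18 CPM in KO. Sex and genotype therefore cannot be told apart in KO against WT. For Trp63 the log2 difference from WT was 0.11 in KO (SE 0.21, adjusted p = 1) and 0.57 in neo (SE 0.21, unadjusted p = 0.0249, adjusted p = 1, edgeR). For Icam1 it was 0.67 in KO (SE 0.71) and 0.59 in neo (SE 0.71), and for Cav1 0.29 in KO (SE 0.27) and 0.48 in neo (SE 0.28). For all 8 genes WT lay inside the range of the 6 mutant libraries. The median over the members was 0.12 in KO and 0.23 in neo, against 0.01 over all genes in both. Without neo replicate 1 the median in neo was 0.38 with 8 of 8 above 0, against 0.03 over all genes, and again none passed.

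**Figure D4:**
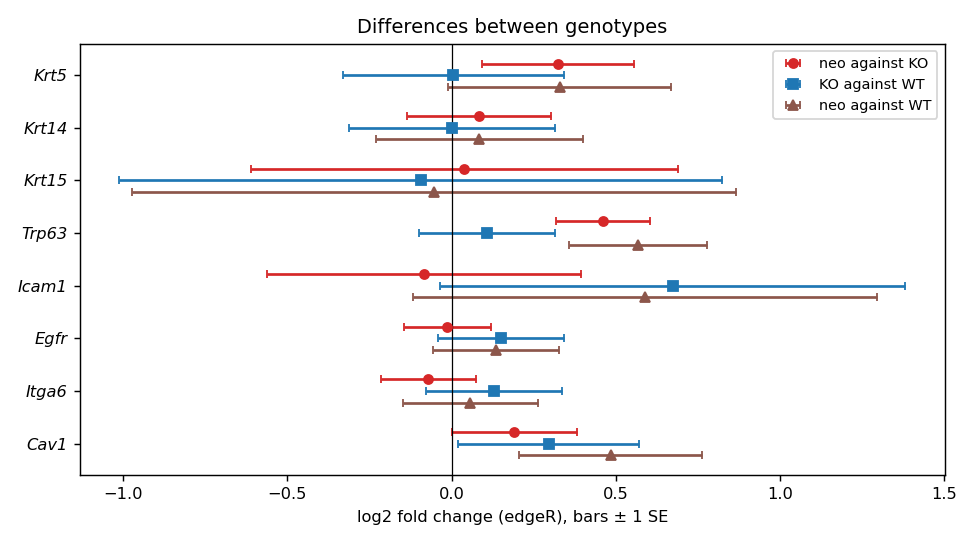
Log2 fold changes of the 8 genes from edgeR in the 3 comparisons, with bars of ± 1 SE. Estimates for Krt15 and Icam1 have the widest bars (SE 0.48 to 0.92), and Trp63 in neo has the estimates farthest from 0 for their error (0.46 ± 0.14 against KO and 0.57 ± 0.21 against WT).

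Levels per length, as gene TPM over all 7 libraries, ordered the genes as Itga6 (52.5 ± 5.69, SD, n = 7), Krt15 (46.9 ± 19.4), Krt5 (45.6 ± 10.1), Krt14 (30.5 ± 5.37), Cav1 (27.1 ± 7.09), Trp63 (12.4 ± 3.01), Icam1 (6.75 ± 3.19) and Egfr (5.27 ± 0.71). Itga6 exceeded Krt15 in 4 of 7 libraries, Krt15 exceeded Krt5 in 5, Krt14 exceeded Cav1 in 5 and Icam1 exceeded Egfr in 3, so those neighbours did not differ beyond their spread. Krt5 exceeded Krt14 in 6 libraries and Trp63 exceeded Icam1 in 6. Cav1 exceeded Trp63 in all 7.

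The 8 genes did not vary as a block. As a description over 7 libraries that share normalisation, Pearson r of log2(CPM + 1) was 0.93 between Egfr and Itga6 (Spearman rho 0.89), 0.84 between Krt14 and Krt15 (rho 0.57), 0.83 between Krt5 and Trp63 (rho 0.86) and 0.78 between Krt5 and Krt15 (rho 0.75). The other 24 pairs ran from -0.24 to 0.72. The keratin 14 and 15 relation rested on KO replicate 2 and neo replicate 1, which were low for both, and r was 0.01 without them. Egfr and Itga6 kept an r of 0.79 without KO replicates 1 and 3, the extremes of Egfr. Krt5 and Trp63, the marker keratin and its known regulator, had an r of 0.56 without neo replicates 2 and 3.

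Marker genes of other cells moved with some members. Krt15 had an r of 0.99 (rho 1) with the summed level of 8 ciliated respiratory cell markers, which was 572 CPM in WT, 689, 433 and 492 CPM in KO, and 379, 662 and 624 CPM in neo. All 8 ciliated markers were detected, and 7 of them had an r above 0.8 with Krt15, among them the cilia regulator Foxj1 (0.96), the sperm and cilia tubule protein Tekt1 (0.98) and the dynein arm gene Dnah5 (0.96). The libraries kept the same order for both, and without KO replicate 2 and neo replicate 1 the r was again 0.99. Krt5 had an r of 0.86 with the ciliated sum and 0.82 with the sum of 6 secretory respiratory markers, 1 of which was at 0 in all libraries. It also had an r of 0.81 with sustentacular cells and 0.73 with mature olfactory neurons, so the relation was not particular to respiratory markers. Without neo replicates 2 and 3 these 4 were 0.85, 0.49, 0.45 and 0.53. The part of respiratory epithelium in the Krt15 and Krt5 levels was not tested.

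Trp63 moved with several marker sums. Its r was 0.82 with the sum of 7 proliferation markers, 0.80 with mature olfactory neurons, 0.78 with the secretory respiratory sum, 0.75 with sustentacular cells and 0.47 with the ciliated sum. Without KO replicates 2 and 3, the lowest for Trp63, these were 0.89, 0.54, 0.78, 0.54 and 0.20. The proliferation sum was 556 to 576 CPM in neo and 385 to 502 CPM in KO, with no overlap, as for Trp63. Sums for sustentacular cells (4351 to 5376 CPM in neo, 3898 to 4343 CPM in KO) and mature olfactory neurons (3012 to 3507 CPM in neo, 2648 to 2940 CPM in KO) were also higher in neo with no overlap. The fibroblast sum was lower (4164 to 7154 CPM in neo, 9059 to 13295 CPM in KO), as was the bone-forming sum. Trp63 had an r of -0.70 with the fibroblast sum and -0.75 with the bone-forming sum. Much of the fibroblast sum was Col1a1 and Col1a2, which averaged 4679 and 4896 CPM in KO. Over the 7 fibroblast markers the median r with Trp63 was -0.22, from -0.73 for Col1a2 to 0.33 for Dcn. In neo against KO, 6 of these 7 had estimates below 0 (median -0.30). Among single genes, 15.6% had no overlap between KO and neo. The part of these cell types in the Trp63 level was not tested. Egfr and Cav1 had an r of 0.82 and 0.75 with the endothelial sum of 8 markers, which overlapped between KO (158 to 208 CPM) and neo (169 to 198 CPM).

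**Figure D5:**
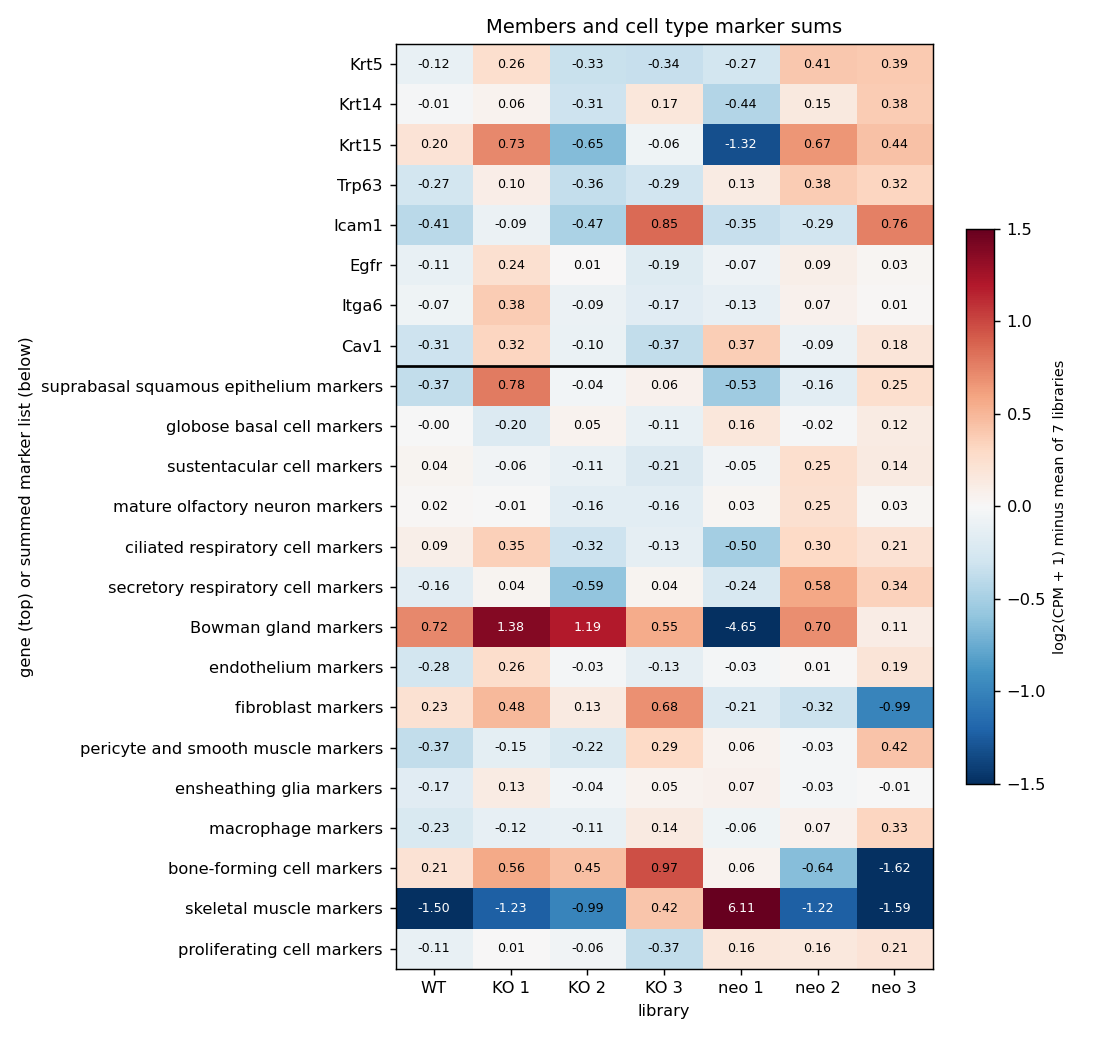
Deviation of log2(CPM + 1) from the mean of the 7 libraries for the 8 genes (above the line) and for the summed markers of 15 cell types (below), per library, with the colour scale ending at ± 1.5. Krt15 (-1.32) and the ciliated sum are lowest in neo replicate 1, where the skeletal muscle sum is far above and the Bowman gland sum far below the other libraries.

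The genes most alike each member over the 7 libraries were found among 12245 genes with a named symbol and a mean of at least 5 CPM, and all had an r of at least 0.97. For Krt15 these were Ttc12, Dmkn and Spag6l, where Ttc12 and Spag6l are known from motile cilia and Dmkn from keratinising epithelium. For Krt5 they were Mppe1, Ltf (lactoferrin, a secretory product) and Nubpl, and for Krt14 Dennd3, Cdhr4 and Wnt11. For Trp63 they were Pcdh7, Tnfrsf21 and Tgfbrap1. Pcdh7 was at 122 CPM in WT, 119 to 154 CPM in KO and 147 to 173 CPM in neo, and overlapped. For Icam1 they included Riok3 and Nfkb2. For Egfr they were Rdx, Ldb2 and Oxr1, for Itga6 Tm9sf4, Herc2 and Sec63, and for Cav1 Trpc1 (a calcium channel), Supt16 and Ehbp1. With 7 libraries, an r above 0.8 with a member is found for 2.25 to 4.34% of 12827 genes, so high values are common.

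None of the genes in 7 lists around the members passed in neo against KO by edgeR or by DESeq2. Over all genes, 9.32% had an unadjusted p under 0.05 by edgeR, beside which the counts per list stand. Among 19 p63 and basal adhesion genes, 9 estimates were above 0 and 10 below, with a median of -0.02 (0.09, and 14 of 19 above 0, without neo replicate 1), and 1 had an unadjusted p under 0.05, the water channel gene Aqp3. Its mean went from 147 ± 4.54 CPM among KO libraries to 173 ± 21.0 CPM among neo libraries (SD, n = 3 each). Every neo library lay above every KO library, as for 7.59% of all genes. The edgeR difference was 0.24 (SE 0.10, adjusted p = 0.527). The next by p were the hyaluronan receptor gene Cd44 (-0.30, adjusted p = 0.559) and the Notch ligand gene Jag2 (0.20, adjusted p = 0.615). The hemidesmosome partner of integrin alpha 6, Itgb4, and its laminin ligand chain Lamb3 followed Krt5 across libraries (r 0.90 and 0.95).

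Of 11 EGF receptor relatives, ligands and the receptor's inhibitor, 9 were tested and 8 had estimates below 0 (median -0.31), with none at an unadjusted p under 0.05 by edgeR and 1, Errfi1, by DESeq2 (adjusted p = 0.460). Errfi1, which encodes that inhibitor, averaged 57.4 ± 18.6 CPM over KO and 40.6 ± 6.003 CPM over neo (-0.50, SE 0.22, adjusted p = 0.539, edgeR). The ligand gene Egf was at 24.8 ± 9.55 and 13.3 ± 6.10 CPM (-0.91, SE 0.46, adjusted p = 0.606), and Areg was near 1 CPM in both (-0.64, adjusted p = 0.695). KO and neo overlapped for all 3 genes.

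Notch receptors and ligands are known to act on the fate of basal cells in this tissue. Of 10 Notch genes, 6 were above 0 and 4 below (median 0.19). By edgeR 2 had an unadjusted p under 0.05, against 9.32% of all genes. These were the receptor gene Notch2 (0.30, adjusted p = 0.517) and the ligand gene Dll1 (0.47, adjusted p = 0.535). Notch1 followed (0.31, adjusted p = 0.568). By DESeq2 1 Notch gene had an unadjusted p under 0.05. Of 10 genes known from activated horizontal basal cells, 8 were tested, 2 estimates were above 0 and 6 below (median -0.40), and Hopx, a homeodomain factor gene, had the smallest p. It averaged 23.0 ± 3.49 CPM over KO and 16.9 ± 2.11 CPM over neo libraries (SD, n = 3 each). Every neo library lay below every KO library, where 15.6% of all genes had no overlap in either direction. The edgeR difference was -0.45 (SE 0.15, adjusted p = 0.498). Emp1 (-0.45, adjusted p = 0.568) and Il33 (0.41, adjusted p = 0.647) came next. Without neo replicate 1, 0 genes of this list had an unadjusted p under 0.05 by edgeR. Krt6a, a keratin of activated and wounded epithelium, was at 9.56 CPM in KO replicate 1 and between 0.30 and 2.46 CPM in the other 6 libraries.

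Of 7 caveola genes 6 were tested, with 3 estimates above 0 and 3 below (median -0.01, and 0.01 without neo replicate 1), led by Cavin1 (0.22, adjusted p = 0.694), Cav2 (-0.13, adjusted p = 0.843) and Cavin3 (-0.13, adjusted p = 0.868). Of 12 ICAM1 partners and NF-kB targets 10 were tested, with 4 above 0 and 6 below (median -0.04, and 0.10 without neo replicate 1). The leukocyte integrin gene Itgal was first by p (0.42, adjusted p = 0.707), followed by Vcam1 (0.17, adjusted p = 0.792) and Itgam (0.39, adjusted p = 0.842). Of 9 other keratins 7 were tested, with 3 above 0 and 4 below (median -0.19, and -0.02 without neo replicate 1), and Krt6a (-1.98, adjusted p = 0.662), Krt17 (-0.43, adjusted p = 0.691) and Krt19 (0.31, adjusted p = 0.821) led by p. None of the caveola, NF-kB and keratin lists had a gene with an unadjusted p under 0.05 by either tool.

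Of 8 markers of suprabasal squamous epithelium, 5 were tested (median -0.51, and -0.07 over 6 tested without neo replicate 1), and none passed. Sprr3, a cornified envelope gene, had the smallest p (-1.60, SE 0.55, unadjusted p = 0.0189, adjusted p = 0.498, edgeR), at 2.79 ± 1.57 CPM over KO and 0.91 ± 0.43 CPM over neo libraries with overlap. Krt13 (-1.88, adjusted p = 0.600) and Krt1 (0.29, adjusted p = 0.833) followed. Of 7 globose basal cell markers, which mark the dividing progenitors above, 5 were above 0 and 2 below (median 0.04), and none passed. Without neo replicate 1 the tally turned to 3 above 0 and 4 below (median -0.06). Hes6 (0.35, unadjusted p = 0.0343, adjusted p = 0.515, edgeR) had every neo library above every KO library, as did 7.59% of all genes. Neurod1 (0.38, adjusted p = 0.553) and Lgr5 (-0.14, adjusted p = 0.834) followed.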

How the data were processed

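RNA from olfactory epithelium was sequenced after poly(A) capture, per the labels' protocols. The authors deposited stranded raw counts per gene (50600 genes, plus 4 summary rows with 35.6 to 41.8% of reads that name no gene and were left out) and TPM per gene and per transcript. Trimmomatic 0.35, STAR 2.5.1b, RSEM and DESeq2 1.18.1 on GRCm38 (mm10) are named per the submitters' processing notes, without their roles. The authors' deposited comparison of KO with neo gives log2 fold changes, p-values and, per the file headers, a standard error treated as a score. Reads that map to several places are absent from the gene counts, which lowers genes with close relatives.

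Counts were tested with edgeR 4.0.16 in R 4.3.3 (TMM, filterByExpr with a minimum count of 10 and total of 15, robust quasi-likelihood F test, two-sided, Benjamini-Hochberg over all genes at 0.05). The 6 KO and neo libraries were fitted for their comparison and all 7 for comparisons with WT. Transcript TPM were tested with limma 3.58.1 on log2(TPM + 0.1), for transcripts whose TPM averaged 0.5 or more. DESeq2 1.42.0, RLE factors, other filters, gene TPM, a replicate block and leaving out each library were alternatives. Fits were tested on simulated data. The members and lists were chosen with earlier results of these data known. All 8 members are named, with up to 3 genes per list by smallest p and the 3 genes most alike each member, of which 1 is not reported here. Other list genes in the text were chosen after their values were seen. Transcript names, exons and sequences come from GENCODE vM21 and promoters from RefSeq. List symbols Cavin1, Cavin2 and Cavin3 were matched through RefSeq synonyms to Ptrf, Sdpr and Prkcdbp.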

Additional observations from a re-analysis of the deposited data

How the results depend on the processing

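No member or transcript of a member passed under any of the alternatives (14 for neo against KO, 13 for each comparison with WT, 9 for transcripts), while the number of all genes called in neo against KO was 3 as reported, 40 with no count filter, 101 with DESeq2, 17 without neo replicate 1, 4 without KO replicate 1, 1 with the 50-count filter, 1 without KO replicate 2 or 3 or neo replicate 3, and 0 on gene TPM. Against WT the counts were 1 for KO (2 to 49 in settings that moved it by over 1.5 times, from no count filter to gene TPM) and 2 for neo (5 to 51). The estimates for Krt5, Trp63 and Cav1 in neo against KO kept their sign in all 14 settings. Small estimates did not, and the cause was not tested.

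On gene TPM with pseudocounts of 0.1 and 1, neo against KO became -0.014 and -0.011 for Krt15, 0.025 and 0.022 for Icam1, 0.15 and 0.13 for Egfr, and 0.067 and 0.066 for Itga6, where the median of all genes moved to 0.10 and 0.08. KO against WT became -0.15 and -0.15 for Krt5, -0.016 and -0.015 for Krt14, -0.041 and -0.037 for Trp63, and -0.018 and -0.018 for Itga6, and Krt14 was -0.00038 with no count filter and -0.0050 with the 50-count filter. The deltaN share turned to 0.38 as a log2 ratio (exact permutation p = 0.6), and deltaN TPM differed by 5.24.

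Leaving out 1 library gave neo against KO from -0.11 to 0.30 for Krt14, -0.31 to 0.49 for Krt15, -0.57 to 0.44 for Icam1, -0.12 to 0.11 for Egfr, -0.17 to 0.12 for Itga6, and -0.056 to 0.69 for Trp63-201, and a deltaN share from -0.60 to 0.50 percentage points. KO against WT ran from -0.22 to 0.11 for Krt5, -0.11 to 0.13 for Krt14, -0.55 to 0.18 for Krt15, -0.053 to 0.20 for Trp63 and -0.062 to 0.23 for Itga6. Neo against WT ran from -0.11 to 0.31 for Krt14 and -0.41 to 0.38 for Krt15.

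No sign that replicate numbers pair the samples was seen. Deviations of libraries with the same number correlated at -0.12, -0.07 and 0.15, and those with different numbers at -0.16 to 0.23. These deviations are taken from the mean of only 3 libraries per group, so the check cannot exclude pairing. With the replicate block 0 members passed, Krt15 was at -0.017, and the calls over all genes fell to 1.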
